A study of Mus musculus with 6 samples.

Results

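The genes described here encode the subunits of the proteasome, matched by gene symbol (Psma, Psmb, Psmc, Psmd or Psme followed by a number). All 43 such genes had at least 1 probe set that named them alone, out of 19938 genes on the array. RNA was measured in fully-grown oocytes at the germinal-vesicle stage, the stage before meiosis resumes. Of the 6 arrays, 3 came from Marf1 ENU/ENU females, homozygous for a chemically induced mutation and called mutant here, and 3 from Marf1+/+ females, called wild type. Strain was given as C57BL/6J;C3HeB/FeJ for both genotypes, and all females were 23 days old and had been primed with 5 IU of equine chorionic gonadotropin for 46 hours. Cumulus cells had been stripped from the oocytes with a pipette, and the labels do not state how many oocytes a sample held. Whether the arrays of a genotype came from separate animals is not stated, so the p-values reflect only how much these samples scatter, and that scatter may be technical.

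The proteasome is the main protease of the cytosol and nucleus for proteins tagged with ubiquitin. Its core is a barrel of alpha and beta rings, in which Psmb5, Psmb6 and Psmb7 carry the proteolytic sites. A regulatory cap sits on the barrel: its base holds a ring of ATPases that unfold the substrate, and its lid holds the enzyme that removes the ubiquitin chain. In oocytes the proteasome destroys cyclin B and securin at the exit from the first meiotic division, and Marf1, an RNA-binding protein of the oocyte, is required for that division to begin.

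All values are log2 expression as deposited, so a difference of 1 is a 2-fold change, and each difference is given as mutant minus wild type. The authors normalised the arrays with RMA, so a difference is relative to the rest of the array and total RNA per oocyte is not measured. The deposited distributions still differed, with a median of 4.76 and an SD of 2.04 on mutant replicate 3, against medians of 4.56 to 4.67 and SDs of 2.14 to 2.20 on the other 5 arrays. In such samples fewer cells of a type and less RNA per cell cannot be told apart. Marf1 itself was lower in the mutant, at 6.18 ± 0.21 against 9.23 ± 0.08 in wild type (SD, n = 3 each, limma adjusted p = 0.0001), although where its probes lie relative to the mutation was not examined. Mutant replicate 3 stood apart from the other 2 mutant arrays, with a correlation of 0.97 and 0.973 against 0.985 between those, and pairs of wild-type arrays had correlations of 0.984 to 0.985. All 12 oocyte markers lay above the level called dim here, 4.51, under which 95% of 1190 olfactory and vomeronasal receptor genes had their mean. Of these markers Kit was lower in the mutant (difference -1.28). Of 12 measured cumulus and granulosa cell markers 2 were higher in the mutant, Nr5a2 (difference 1.46) and Kitl (at least 2.22-fold higher against the dim level, which its wild-type values were under), and 0 lower. The median difference of the 12 was -0.08, 9 of them had a difference below 0, and in Amh and Ptx3 every mutant value was below every wild-type value. Their summed level on the linear scale was 1310 to 1660 on mutant arrays, against 639 to 706 on wild-type arrays, and 7 of the 12 lay above the dim level. Without Nr5a2 and Kitl, left out after their values were seen, the sum was 195 to 268 on mutant arrays and 218 to 255 on wild-type arrays. Among 9 markers of theca and stroma Pdgfra was higher (at least 1.3-fold against the dim level, which its wild-type values were under). The sums of the 9 were 199 to 238 in the mutant and 197 to 221 in wild type. Among 9 endothelial, blood and immune markers Pecam1 was lower, with sums of 211 to 254 in the mutant and 278 to 309 in wild type. Pecam1 (difference -1.07) had the highest wild-type mean of the 9, at 7.27, and so weighed most in these sums. The median difference of the 9 was 0.06, with 4 of them below 0 and 5 above. The part of other cells in the results below was not tested.

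Few proteasome genes passed the threshold, and those that did were 2 genes of the lid, 1 of the core and 1 of the base. Psmd13, Psmd14 and Psmb5 were higher in the mutant and Psmd1 was lower, at a limma adjusted p under 0.05 over all probe sets. These are 3 higher and 1 lower of 43, beside a background of 6.4% higher and 4.04% lower among all genes, and 8.69% and 7.12% among genes with a mean level of 8 to 11, so the shares called were close to those of genes at large. At an unadjusted p under 0.05 there were 4 higher and 6 lower, beside 24.5% of all genes in either direction. Every mutant value lay above every wild-type value in 4 of the 43 genes and below in 15, beside 12.9% and 17.7% of all genes and 16.3% and 33.6% of genes at a level of 8 to 11. After quantile normalisation 6 genes lay above and 8 below, beside 13.3% and 20.4% of all genes. After cyclic loess normalisation the counts were 7 above and 5 below, beside 16.8% and 14.4%, and after median centring 4 above and 11 below, beside 12.6% and 16.4%. The median difference over the 43 genes was -0.13, against -0.04 over all genes and -0.15 over the 2359 genes at a level of 8 to 11, where 32 of the 43 lay.

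**Figure D1:**
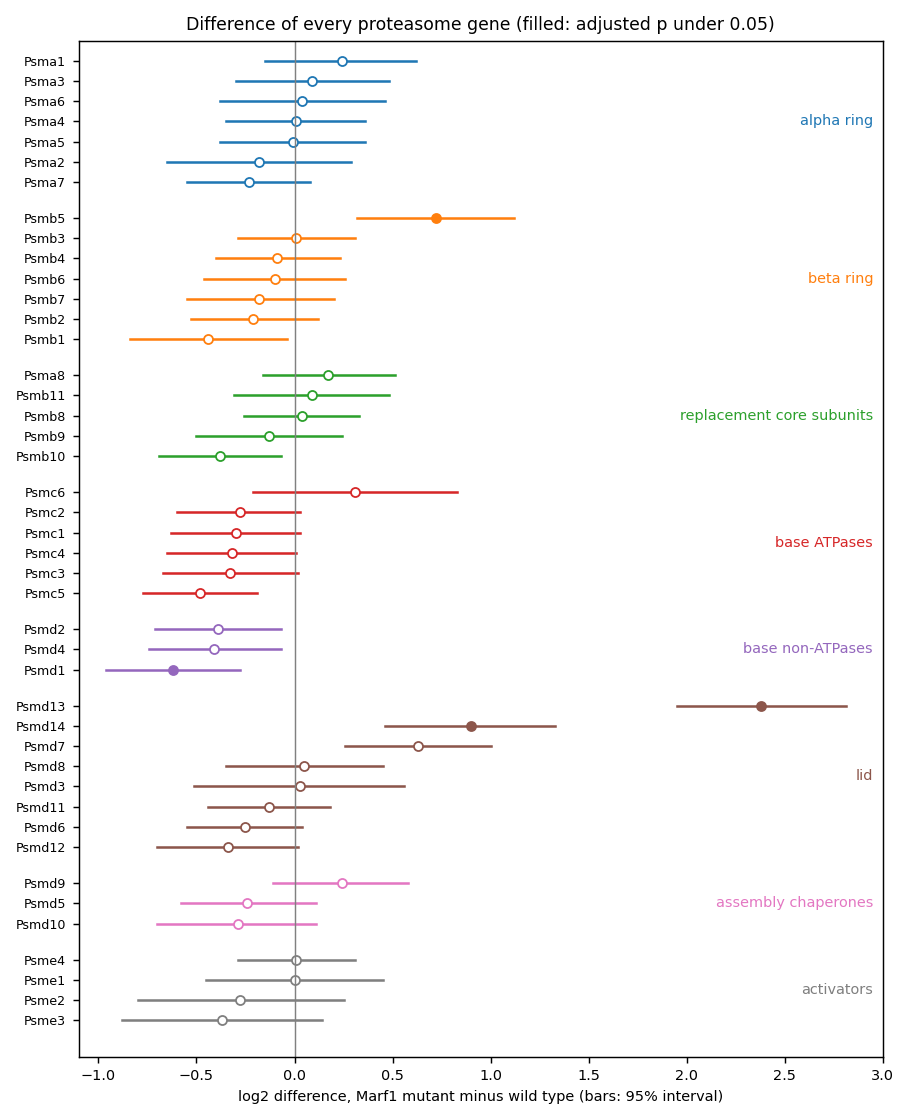
Log2 difference (mutant minus wild type, horizontal axis) of each of the 43 proteasome genes, grouped by part of the particle, with 95% intervals from limma and filled points for adjusted p under 0.05. Psmd13 stands alone at 2.38, the base genes other than Psmc6 lie left of 0, and the core genes other than Psmb5 lie between -0.44 and 0.24.

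Psmd13, a structural subunit of the lid (probe set 10558723), had the largest difference of the 43 genes. It was 7.34, 7.46 and 7.18 on the mutant arrays, against 5.28, 4.70 and 4.85 on the wild-type arrays. Every mutant value was thus more than 1 log2 unit above every wild-type value. The difference was 2.38 (SE 0.18, 5.22-fold higher, 95% interval 1.95 to 2.81, limma adjusted p = 3.83e-04). The wild-type mean of 4.94 ± 0.30 lay close to the dim level of 4.51, whereas the mutant mean of 7.33 ± 0.14 did not (SD, n = 3 each). Psmd13 was the only one of the 43 genes past the threshold under each of the 16 alternative settings, with adjusted p up to 0.00351.

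Psmd14, the metalloprotease of the lid that cuts ubiquitin chains off substrates, was 9.29, 9.65 and 8.98 in the mutant, against 8.44, 8.44 and 8.35 in wild type. The mutant arrays spread more (SD 0.34, against 0.05 in wild type) but did not overlap with wild type, and the difference was 0.90 (SE 0.19, 1.86-fold higher, adjusted p = 0.0279). Psmd7, the partner with which Psmd14 forms a heterodimer in the lid, was 9.16, 9.22 and 8.92 in the mutant, against 8.58, 8.26 and 8.58 in wild type. These groups did not overlap either, and the difference of 0.63 (SE 0.16) narrowly missed the threshold (adjusted p = 0.0567). Mutant replicate 3 had the lowest mutant value of Psmd13, Psmd14 and Psmd7. When it was left out, Psmd14 had an adjusted p of 0.0104 and Psmd7 of 0.0417, whereas Psmd14 missed the threshold in each of the other 5 fits that left out 1 array, at adjusted p of up to 0.106, and after median centring (0.0623).

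The other 5 lid genes encode scaffold subunits and had no call. Psmd8 and Psmd3 differed by 0.05 and 0.03, with overlapping groups, and the wild-type values of Psmd3 spread widely (6.51, 5.81 and 6.57). Psmd11, Psmd6 and Psmd12 had differences of -0.13, -0.25 and -0.34, and in each every mutant value was below every wild-type value. The lid thus held 3 genes entirely above and 3 entirely below wild type. The shares above and below were 12.9% and 17.7% of all genes, and 16.3% and 33.6% of genes at a level of 8 to 11. The lid count below was 1 after quantile normalisation (20.4% of all genes), cyclic loess normalisation (14.4%) or median centring (16.4%). Without Psmd13 its median difference was 0.03.

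**Figure D2:**
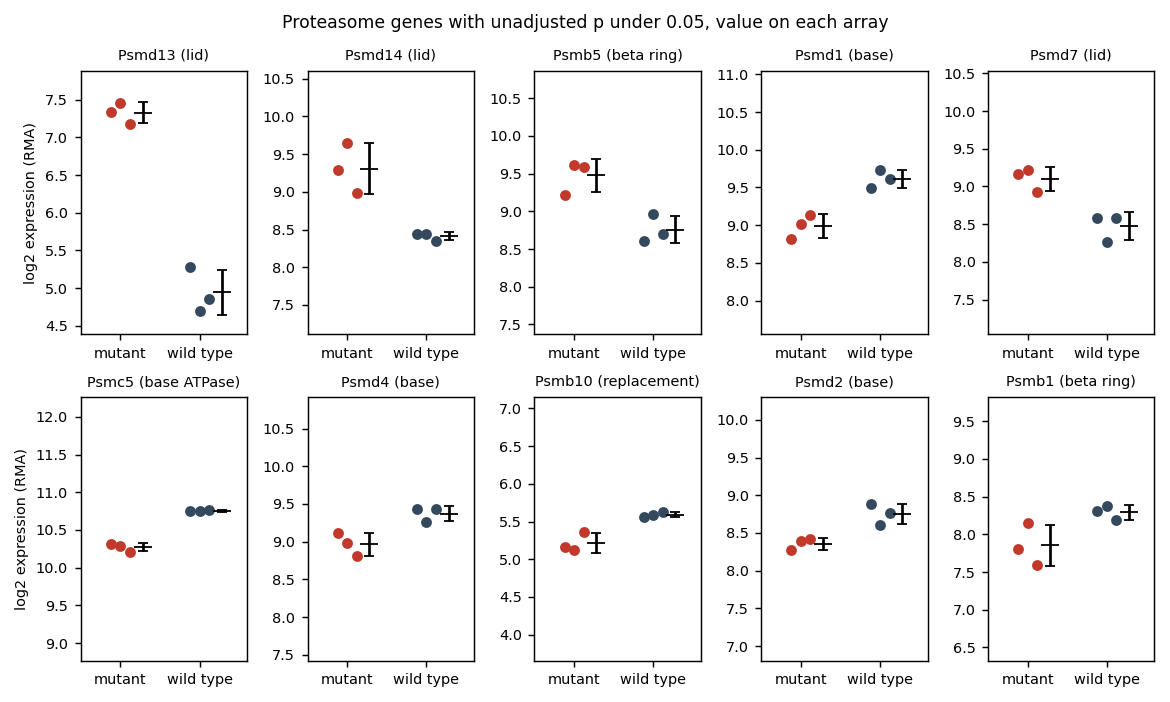
Log2 expression on each array for the 10 proteasome genes with an unadjusted p under 0.05, mutant left and wild type right, with the mean and SD beside the points. All panels span the same number of log2 units. The gap between genotypes is widest for Psmd13 (5.22-fold), and for the lower 6 genes, Psmd1 among them, it is at most 1.54-fold.

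The base was the part whose genes lay most uniformly on one side. Of its 9 genes 8 had a difference below 0, where 56.5% of all genes and 65.9% of genes with a mean level of 8 to 11 did. In these 8 genes every mutant value was below every wild-type value, beside 17.7% of all genes and 33.6% of those at a level of 8 to 11. The closest values in Psmc3 were 7.95 and 7.96. The median difference of the base was -0.33, against -0.15 over genes at a level of 8 to 11. Its median deviation from the wild-type mean was -0.40, -0.36 and -0.33 on mutant replicates 1, 2 and 3. For genes at a level of 8 to 11 this was -0.08, -0.04 and -0.32, so on mutant replicate 3 the base lay close to them. Only Psmd1 passed the threshold. The count without overlap depended on the scaling of the arrays: it was 8 after median centring (16.4% of all genes), 5 after quantile normalisation (20.4%) and 3 after cyclic loess normalisation (14.4%). The number below 0 was 8 of 9 under all 16 alternative settings, with medians between -0.39 and -0.18. Settings that changed only the rows kept, the prior spread or a replicate block could not move these differences. The rest reused the same arrays.

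Psmd1, the large scaffold of the base on which the lid and ubiquitin-binding proteins dock, was 8.82, 9.01 and 9.14 in the mutant, against 9.49, 9.73 and 9.61 in wild type. The difference was -0.62 (SE 0.15, 1.54-fold lower, adjusted p = 0.0460). Among the fits that left out 1 array it passed only without mutant replicate 3 (adjusted p = 0.0373), and in the others the adjusted p reached 0.150. It also missed the threshold after quantile (0.106) and cyclic loess normalisation (0.188), and with the replicate number as a block (0.0833). The other scaffold of the base, Psmd2, was 8.27, 8.39 and 8.42 in the mutant, against 8.88, 8.61 and 8.76 in wild type (difference -0.39, SE 0.14, adjusted p = 0.158). Psmd4, a ubiquitin receptor, was 9.11, 8.98 and 8.81 in the mutant, against 9.43, 9.26 and 9.43 in wild type (difference -0.41, SE 0.14, adjusted p = 0.155). Neither pair of groups overlapped, but only Psmd1 carried a call.

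The 6 ATPases form a hexameric ring in which each gene fills its own position. Psmc5 had the tightest values, at 10.32, 10.29 and 10.21 in the mutant, against 10.75, 10.75 and 10.77 in wild type. Its difference of -0.48 (SE 0.12, adjusted p = 0.0603) missed the threshold, and it passed with 1 row per gene (0.0296), with a level-dependent prior spread (0.0195), with array weights (0.0407) and among rows above the median level (0.0334). Psmc1, Psmc2, Psmc3 and Psmc4 had differences of -0.30, -0.28, -0.33 and -0.32 with standard errors of 0.14 to 0.15, and their adjusted p ranged over 0.264 to 0.310. Psmc6 was the exception in the ring, with a difference of 0.31 (SE 0.22, adjusted p = 0.557). It was 9.03, 8.96 and 8.30 in the mutant, against 8.67, 8.27 and 8.43 in wild type, so mutant replicate 3 lay inside the wild-type range and the other 2 mutant arrays above it.

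**Figure D3:**
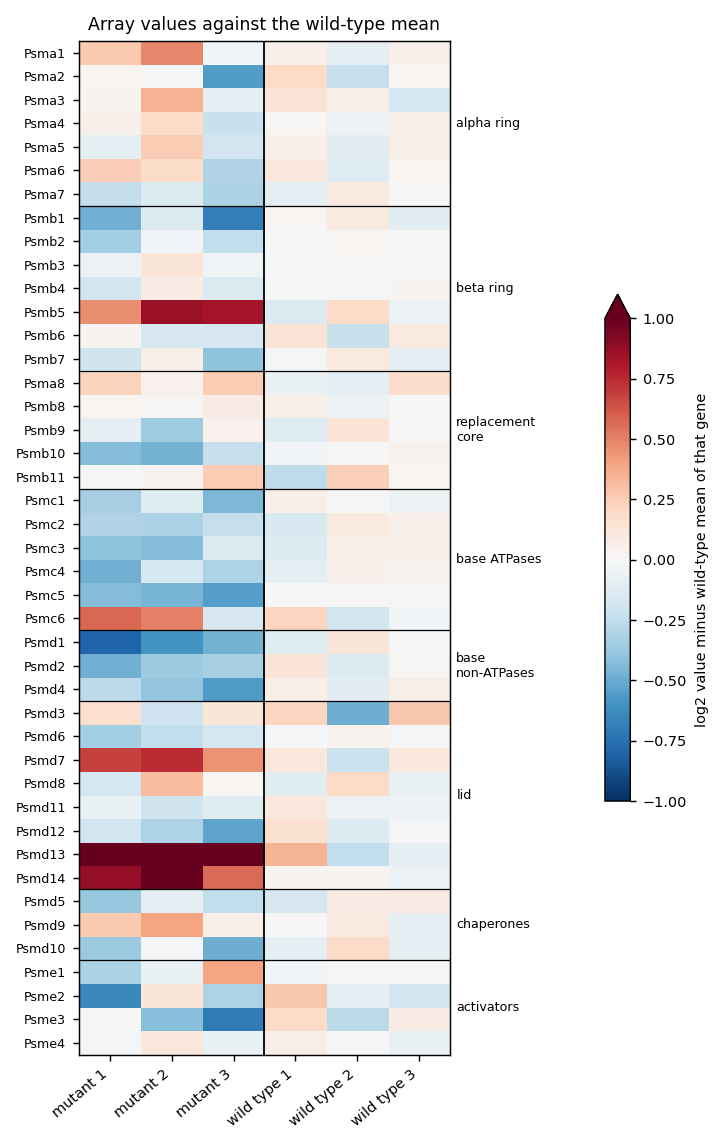
Value of each of the 43 genes on each array minus that gene's wild-type mean (log2 units, colours end at -1 and 1). All 3 mutant values of Psmd13 lie past the upper end, as does Psmd14 on mutant replicate 2, at 1.24. Mutant arrays are on the left, and lines separate the parts of the particle. The base is blue on all mutant arrays except for Psmc6. The alpha ring differs between mutant arrays, with medians of 0.03, 0.19 and -0.22 on mutant replicates 1, 2 and 3. Over the 2359 genes with a mean level of 8 to 11 the medians on these arrays were -0.08, -0.04 and -0.32, so mutant replicate 3 was lowest there too.

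In the core particle 1 of 14 genes passed the threshold, and the median difference was -0.05. That gene was Psmb5, which carries the chymotrypsin-like site of the beta ring. It was 9.22, 9.62 and 9.59 in the mutant, against 8.61, 8.96 and 8.70 in wild type, without overlap. The difference was 0.72 (SE 0.17, 1.65-fold higher, adjusted p = 0.0453). Among the fits that left out 1 array Psmb5 passed only without mutant replicate 1 (adjusted p = 0.0462). It missed after quantile normalisation (0.0609) and with the replicate number as a block (0.0581).

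The other catalytic subunits had no call. Psmb6, with the caspase-like site, was 10.17, 9.98 and 9.97 in the mutant, against 10.27, 9.92 and 10.23 in wild type (difference -0.10, 95% interval -0.46 to 0.26). Psmb7, with the trypsin-like site, was 9.61, 9.88 and 9.41 in the mutant, against 9.80, 9.91 and 9.72 in wild type (difference -0.18, 95% interval -0.55 to 0.20). Both genes had overlapping groups, and the interval of Psmb5 was 0.32 to 1.12. The differences between these genes were not themselves tested.

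The structural beta genes had no call. Psmb1 was 7.81, 8.15 and 7.60 in the mutant, against 8.31, 8.38 and 8.19 in wild type (difference -0.44, SE 0.17, adjusted p = 0.206). Psmb2, Psmb4 and Psmb3 had differences of -0.21, -0.09 and 0.01. The wild-type arrays were close together for these 3 genes, with SDs of 0.01 to 0.02, against 0.10 to 0.16 in the mutant.

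The 7 genes of the alpha ring, which forms the gate through which substrates enter the barrel, lay within 0.24 of 0. Psma1, Psma3, Psma6 and Psma4 had differences of 0.24, 0.09, 0.04 and 0.01, and Psma5, Psma2 and Psma7 of -0.01, -0.18 and -0.23. Psma7 alone had every mutant value (10.78 to 10.96) below every wild-type value, with means of 10.87 in the mutant and 11.10 in wild type. For Psma2 the value of mutant replicate 3, 9.90, lay below the other 5 arrays (10.23 to 10.66). Without that array 6 of the 14 core genes were below 0, against 8 with it.

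Some core subunits are replaced in particular tissues, and none of the 5 such genes passed the threshold. Psmb8, Psmb9 and Psmb10 stand in for Psmb5, Psmb6 and Psmb7 in the immunoproteasome, which immune cells carry and interferon induces. Psmb8 was 3.65, 3.64 and 3.71 in the mutant, against 3.69, 3.57 and 3.63 in wild type, below the dim level on every array. Psmb9 was 5.80, 5.53 and 5.93 in the mutant, against 5.76, 6.02 and 5.88 in wild type, with overlap. Psmb10 was 5.16, 5.12 and 5.36 in the mutant, against 5.56, 5.59 and 5.63 in wild type, without overlap (difference -0.38, SE 0.13, adjusted p = 0.156). Psma8, the alpha subunit of spermatocytes, was 3.39, 3.21 and 3.42 in the mutant, against 3.09, 3.07 and 3.34 in wild type. Psmb11, the beta subunit of the thymic cortex, was 4.13, 4.18 and 4.41 in the mutant, against 3.90, 4.39 and 4.17 in wild type. Psma8, Psmb8 and Psmb11 were thus dim in both genotypes, and a change in them would be hard to see on this array.

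Factors that help to build the cap or bind the core in its place had no call. The base chaperones Psmd10, Psmd5 and Psmd9 had differences of -0.29, -0.24 and 0.24. Among the activators that open the core without the cap, Psme1 and Psme2 form one ring and Psme3 another. Their differences were 0.00, -0.28 and -0.37, and that of Psme4, a single large protein known for its role in spermatids, was 0.01. Psme1 had a mutant SD of 0.36 against 0.02 in wild type, with values of 5.17, 5.41 and 5.88. Over the 39 genes without a call, every 95% interval lay within a 2-fold change in either direction, and the widest reaches were -0.88 for Psme3 and 1.00 for Psmd7. For Psma8, Psmb8 and Psmb11, which were dim in both genotypes, such an interval does not bound the change in RNA.

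Psma3, Psma5, Psmb3, Psmc1 and Psmd2 were read by more than 1 probe set, and the one with the highest mean was used. Whether any of these probe sets also reads near-identical copies was not tested. Their 6 other probe sets had differences of -0.31 to 0.12 and none passed the threshold. For Psma5 and Psmb3 the second gave -0.21 and -0.19, against -0.01 and 0.01 in the first, with overlapping groups. The others of Psma3 gave 0.12 and 0.05, against 0.09 in the one used. For Psmc1 both probe sets gave -0.30. For Psmd2 the second gave -0.31 with overlapping groups, against -0.39 without overlap in the first.

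The annotated start regions of the 4 genes past the threshold are shown. Where the transcripts begin in these oocytes was not measured. They are RefSeq windows of build GRCm38.p6, from 250 bases before to 50 bases after the annotated start, on the strand of the gene. In Psmd13 (chr7:140882144-140882443, plus strand) capitals mark the bases between its start and the start of Sirt3, which lies 85 bases away on the other strand. In Psmd14 (chr2:61711444-61711743, plus strand), Psmb5 (chr14:54617946-54618245, minus strand) and Psmd1 (chr1:86064369-86064668, plus strand) capitals mark matches to the motifs searched.
Psmd13: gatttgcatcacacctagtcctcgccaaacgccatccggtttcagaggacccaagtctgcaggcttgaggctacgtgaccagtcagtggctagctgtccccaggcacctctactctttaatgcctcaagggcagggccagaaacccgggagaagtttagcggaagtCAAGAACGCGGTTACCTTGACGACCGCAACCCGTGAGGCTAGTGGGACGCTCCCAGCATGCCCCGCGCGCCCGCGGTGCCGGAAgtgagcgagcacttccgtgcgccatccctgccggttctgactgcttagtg
Psmd14: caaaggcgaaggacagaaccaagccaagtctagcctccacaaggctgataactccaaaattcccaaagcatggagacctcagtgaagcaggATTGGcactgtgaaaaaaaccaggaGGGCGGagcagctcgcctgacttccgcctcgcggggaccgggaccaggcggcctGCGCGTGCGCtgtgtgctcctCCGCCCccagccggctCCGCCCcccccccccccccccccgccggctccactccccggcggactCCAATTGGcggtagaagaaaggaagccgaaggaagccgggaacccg
Psmb5: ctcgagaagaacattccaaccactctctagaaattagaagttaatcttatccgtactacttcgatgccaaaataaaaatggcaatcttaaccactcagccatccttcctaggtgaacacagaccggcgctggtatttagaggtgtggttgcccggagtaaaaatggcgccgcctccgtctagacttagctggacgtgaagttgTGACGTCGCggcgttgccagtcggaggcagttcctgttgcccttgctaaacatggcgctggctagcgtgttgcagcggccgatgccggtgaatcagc
Psmd1: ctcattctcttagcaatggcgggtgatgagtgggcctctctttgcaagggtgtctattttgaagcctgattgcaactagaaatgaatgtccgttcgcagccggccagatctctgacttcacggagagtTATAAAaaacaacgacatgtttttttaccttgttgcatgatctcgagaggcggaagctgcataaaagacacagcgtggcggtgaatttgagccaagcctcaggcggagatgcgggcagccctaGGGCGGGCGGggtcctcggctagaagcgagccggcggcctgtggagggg

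A set of 5 motifs was searched on both strands, with overlaps allowed, in the 39 windows of the 36 of 43 genes that had a window. Psma8, Psmb1, Psmb2, Psmb7, Psmc3, Psmd3 and Psmd7 had none. A gene counted if any of its windows held the motif, whereas shares of all windows count each window alone, so the units differ and favour the genes. The core of the antioxidant response element, TGACNNNGC, is bound by Nfe2l1, the factor that raises proteasome genes when proteasomes are inhibited. It was present in 6 of 36 genes (16.7%, against 12.4% of all 32851 windows), and of the 4 genes shown only in Psmb5, from -47 to -39 relative to the start. The GC box GGGCGG was present in 22 of 36 genes (61.1%, against 35.7%), with 3 matches in Psmd14 and 2 in Psmd1. The CCAAT box was found in 38.9% of the genes and 37.4% of all windows, the core of the binding site of the factor NRF1 (nuclear respiratory factor) in 16.7% and 4.6%, and TATAAA in 11.1% and 13.6%. The median GC content was 57.3% in the windows of these genes and 52.7% in all windows. The Psmd13 window held 0 matches to any of the 5 motifs. Sirt3, the mitochondrial deacetylase that starts on the other side of the marked stretch, was 4.33, 4.11 and 4.98 in the mutant, against 4.55, 4.57 and 4.92 in wild type (difference -0.21, 95% interval -0.77 to 0.35), near the dim level throughout, whereas Psmd13 was higher in the mutant by 2.38.

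Genes that work with the proteasome but do not carry these symbols were counted in lists by role, beside the same 6.4% higher and 4.04% lower of all genes past the threshold and 24.5% at an unadjusted p under 0.05 in either direction. Of 9 measured further subunits and assembly factors 1 was higher and 0 lower. It was Psmg2, a chaperone that pairs with Psmg1 to assemble the alpha ring, at 5.88, 7.24 and 6.50 in the mutant, against 4.14, 4.28 and 3.58 in wild type. Its mean was 6.54 in the mutant and 4.00 in wild type, the second under the dim level, so it was at least 4.10-fold higher against that level (adjusted p = 0.00453). Among the genes of these lists without a call, those named here were chosen after their values were seen. Pomp, which matures the core, had a difference of -0.56 without overlap (adjusted p = 0.0977).

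Of 9 genes of the p97 segregase, which pulls ubiquitin-tagged proteins out of membranes and complexes for the proteasome, 1 was higher and 0 lower. It was Faf2, an adaptor of p97 at the endoplasmic reticulum, at 7.52, 7.12 and 6.86 in the mutant, against 5.32, 5.06 and 5.12 in wild type (difference 2.00, SE 0.19, adjusted p = 9.67e-04). Vcp, which encodes p97 itself, had a difference of 0.48 without overlap (adjusted p = 0.0978). Of 2 measured ubiquitin and E1 genes, the E1 enzyme Uba6 was higher, at 8.75, 8.87 and 8.02 in the mutant, against 7.51, 7.37 and 7.59 in wild type (difference 1.06, SE 0.23, adjusted p = 0.0341).

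Of 11 ubiquitin shuttles and proteasome-bound enzymes 0 passed the limma threshold, and at an unadjusted p under 0.05 there was 1, the ubiquitin ligase Ube3c (difference 0.44, SE 0.14, adjusted p = 0.124). Of 4 genes that control transcription of proteasome genes 0 passed the limma threshold, and 2 of the 4 had an unadjusted p under 0.05, both with a difference below 0, beside 24.5% of all genes in either direction. These were Nfe2l1 itself, at 8.32, 8.19 and 8.24 in the mutant, against 8.76, 8.64 and 8.72 in wild type (difference -0.46, SE 0.13, adjusted p = 0.0789), and Ngly1, the glycanase that processes it (-0.49, SE 0.14, adjusted p = 0.0815). Neither gene's groups overlapped. Of 7 antigen presentation genes, partners of the immunoproteasome, 0 passed the limma threshold, and at an unadjusted p under 0.05 there was 1, the transcription factor Irf1 (difference -0.39, SE 0.14, adjusted p = 0.176).

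**Figure D4:**
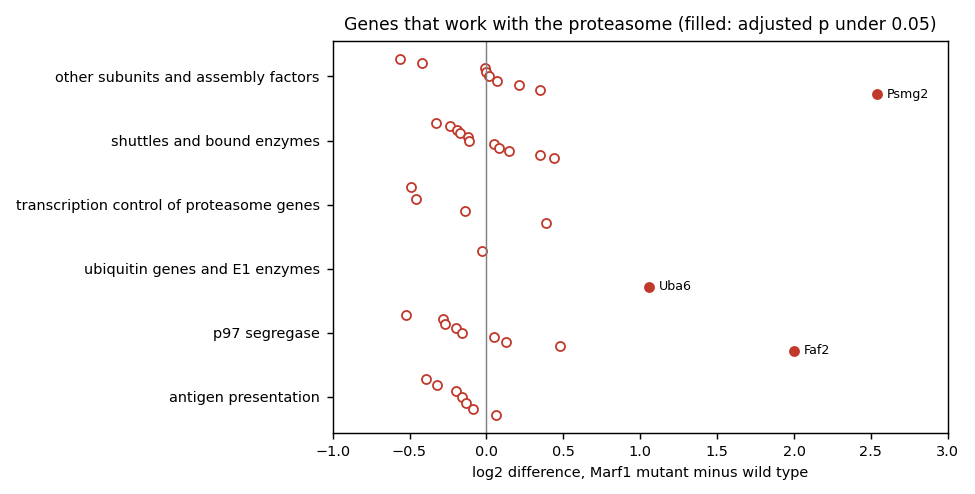
Log2 difference (mutant minus wild type) of each measured gene in 6 lists of proteasome partners, filled where the adjusted p is under 0.05. Psmg2 (drawn at its fitted difference, its wild-type level being dim), Faf2 (2.00) and Uba6 (1.06) pass, all higher in the mutant, and the other genes lie between -0.56 and 0.48.

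The calls among the 43 genes differed in how well they stood up to other processing. Psmd13 passed everywhere, and Psmd14, Psmb5 and Psmd1 passed with all arrays in most settings but not when most single arrays were left out. Psmd7 and Psmc5 lay just outside the threshold and moved inside it under several settings.

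**Figure D5:**
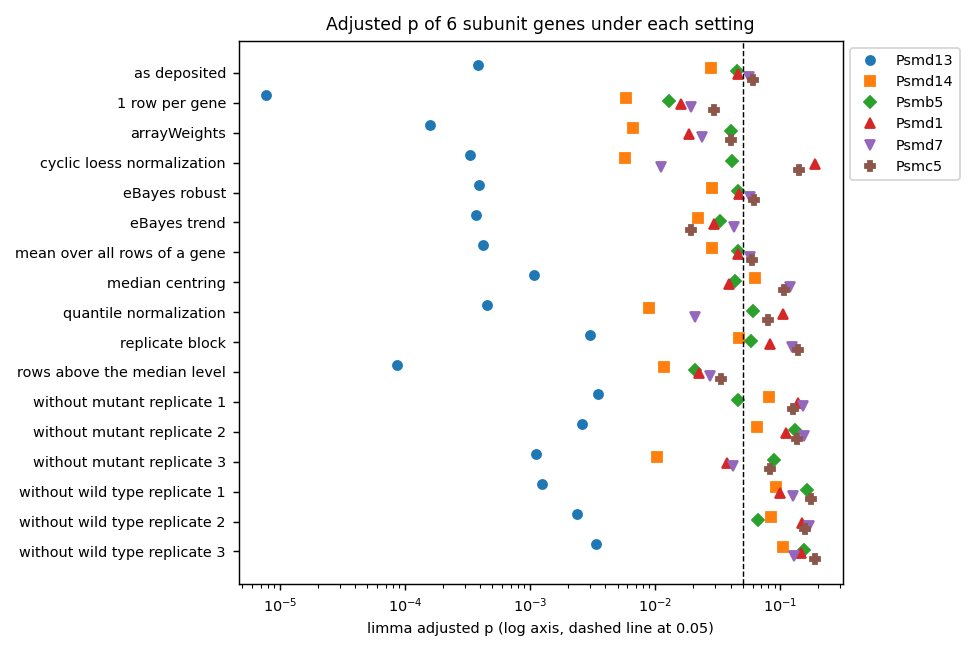
Limma adjusted p (log axis, dashed line at 0.05) of the 6 proteasome genes nearest the threshold or past it, with the values as deposited and under each of 16 alternative settings. Psmd13 lies at 0.00351 or below throughout, and the other 5 genes fall on both sides of the line.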

How the data were processed

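RNA from fully-grown oocytes of 3 Marf1-mutant and 3 wild-type samples was amplified by a whole-transcript method and hybridised, 1 sample to an array, per the labels' protocols. The authors deposited log2 values with 2 decimals, 1 for each probe set and array, made with GCOS, Affymetrix Expression Console 1.1 and RMA, per the submitters' processing notes. The number of arrays limits the precision. Groups came from the sample titles.

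Of 35556 rows, 21789 named 1 gene in the platform annotation, and these covered 19938 genes; where several rows named a gene, the one whose average over the arrays was highest stood for it. The fit used limma (version 3.58.1, under R 4.3.3) with lmFit and eBayes, two-sided, mutant minus wild type, on all rows without a filter, adjusted by Benjamini-Hochberg over all rows. The procedure was tested on simulated arrays. Every measured member was named, and partner genes by rule only where past the threshold (adjusted p under 0.05). Other partner genes, Sirt3, the level class of 8 to 11 and the motifs were chosen after values were seen. The members and lists were chosen with earlier results of these data known. Partner genes with no row naming them alone were not analysed here. The alternatives were other normalisations, filters, priors and array weights, a replicate block, and leaving out each array.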

Additional observations from a re-analysis of the deposited data

How the results depend on the processing

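Over all probe sets 2765 passed the threshold, and 1368 to 2804 when 1 array was left out. The count of proteasome genes was 3 higher and 1 lower with all arrays, and 1 to 3 higher and 0 to 1 lower when 1 array was left out. The lower count was 2 with 1 row per gene, array weights, a level-dependent prior spread and among rows above the median level, and 0 after quantile and cyclic loess normalisation. The base median of -0.33 ranged over -0.39 to -0.29 with 1 array left out, and was -0.36 with array weights and -0.18 after cyclic loess normalisation. That normalisation gave 0.07 for the core (-0.05 as deposited) and 0.18 for the lid (0.04 as deposited), with a median over all genes of -0.01. Of 685 single-gene comparisons with an alternative 21 lost a call, 11 gained one and 0 changed sign with a call. Same-numbered arrays had deviations that correlated at 0.147, -0.0992 and 0.0267, and differently numbered ones at -0.216 to 0.183. Whether the numbers pair the samples is not stated, and 3 arrays per genotype are too few to settle it. The fit with the replicate number as a block gave 1946 probe sets, 2 higher proteasome genes and 0 lower, with adjusted p of 0.0581 for Psmb5 and 0.0833 for Psmd1. Genes near the background, such as Psma8, Psmb8 and Psmb11, are limited by their dim signal.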
